A study of Homo sapiens with 4 samples.

Results

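The metabolic nuclear receptors of liver, a set of 10 genes, were examined in HepG2 cells in which CDK4 and CDK6 had been inhibited. They were chosen by symbol: NR1H4 (FXR), NR0B2 (SHP), NR1H2 (LXR beta), NR1H3 (LXR alpha), NR1I2 (PXR), NR1I3 (CAR), NR5A2 (LRH-1), PPARA, RXRA and ESRRA (ERR alpha). All 10 were present among the 24462 genes of the count tables. HepG2 is a cell line from a liver tumor, labelled as hepatocellular carcinoma, and all cells were grown in RPMI with fetal bovine serum and penicillin streptomycin. There were 4 libraries, 1 per condition. The first arm held a DMSO control and cells treated with PD0332991 (palbociclib, labelled PD-0332991), a small molecule that inhibits the kinases CDK4 and CDK6. The second arm held cells transfected with a scrambled siRNA and cells transfected with siRNAs against CDK4 and CDK6 together (CDK4/6 KD). The dose and duration of PD0332991 and the time after transfection are not given in the sources used here.

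Nuclear receptors are transcription factors that bind small lipophilic ligands and control genes directly. FXR is the bile acid receptor and induces SHP, a receptor without a DNA-binding domain that represses other receptors such as LRH-1 and thereby lowers bile acid synthesis. The LXRs sense oxysterols, PXR and CAR sense drugs and other foreign compounds, and PPAR alpha senses fatty acids and drives their oxidation. RXR alpha is the shared partner with which FXR, LXR, PXR, CAR and PPAR alpha bind DNA, while ERR alpha acts without a known natural ligand on genes of mitochondrial energy metabolism.

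Levels were expressed as CPM, the reads of a gene scaled to a common library total, after TMM scaling, which corrects for differences in RNA composition between libraries. The libraries held 8983848 to 11176880 reads, so that 1 read corresponded to 0.0883 to 0.110 CPM. They were made from the 3′ ends of mRNAs, which gives reads that do not grow with transcript length, and CPM values were therefore compared between genes without division by length. With 1 library per condition there was no replicate check, and no test between conditions was possible. The intervals given are 95% intervals for counting error only (exact Poisson for a level, Clopper-Pearson on the division of reads for a fold change), and they do not cover the spread between cultures. In cells collected in bulk, fewer cells that express a gene and less RNA per cell cannot be told apart.

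The knockdown was visible in the targeted genes. CDK4 was measured at 354 CPM after the scrambled siRNA and 71.9 CPM after CDK4/6 KD, and CDK6 at 536 and 129 CPM. All 10 hepatocyte markers examined had at least 10 reads in every library, with a summed level of 18330 CPM in DMSO, 20667 in PD0332991, 18451 in scrambled siRNA and 23931 in CDK4/6 KD. Of 15 keratinocyte markers, 3 in DMSO and 10 in PD0332991 had at least 10 reads, with a summed level between 207 and 367 CPM over the 4 libraries. KRT5 had 2 reads in DMSO, 113 in PD0332991, 13 with scrambled siRNA and 43 with CDK4/6 KD, while TP63 had at most 1 read in any library. The sum of 8 fibroblast markers was lowest in scrambled siRNA (8.88 CPM) and highest in PD0332991 (80.5 CPM), endothelial markers summed to at most 0.657 CPM, and PTPRC, which marks leukocytes, had 2 reads in DMSO and 0 in the other libraries. The scrambled siRNA library stood apart from the DMSO library for many of the receptors, as described below for each, and for this reason each inhibited library was also set against the control of the other arm.

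The proximal sequences upstream of 4 of these genes are shown because their transcripts carried the clearest differences described below. Among the 9 receptors with at least 10 reads in every library NR1H4 and NR5A2 had the widest range, and PPARA and RXRA had nearly the same pattern. Each sequence is the 250 bases before the first start listed for the gene in the promoter set used (GRCh38.p14). It is written 5′ to 3′ on the strand of the gene, which was the plus strand in each case. Capitals mark the hexamer AGGTCA or its reverse complement TGACCT, the core to which most of these receptors bind. The positions are chr12:100503110-100503359 for NR1H4, chr1:200027460-200027709 for NR5A2, chr22:46150276-46150525 for PPARA and chr9:134326205-134326454 for RXRA.
NR1H4: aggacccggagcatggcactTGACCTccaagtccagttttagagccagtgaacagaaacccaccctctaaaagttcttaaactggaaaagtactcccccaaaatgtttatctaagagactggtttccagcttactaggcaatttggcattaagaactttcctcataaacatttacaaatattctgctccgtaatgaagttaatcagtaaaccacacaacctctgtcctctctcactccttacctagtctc
NR5A2: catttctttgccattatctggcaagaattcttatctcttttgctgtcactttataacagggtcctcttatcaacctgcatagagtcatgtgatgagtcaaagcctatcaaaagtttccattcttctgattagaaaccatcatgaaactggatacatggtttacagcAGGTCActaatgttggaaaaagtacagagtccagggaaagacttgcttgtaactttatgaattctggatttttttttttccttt
PPARA: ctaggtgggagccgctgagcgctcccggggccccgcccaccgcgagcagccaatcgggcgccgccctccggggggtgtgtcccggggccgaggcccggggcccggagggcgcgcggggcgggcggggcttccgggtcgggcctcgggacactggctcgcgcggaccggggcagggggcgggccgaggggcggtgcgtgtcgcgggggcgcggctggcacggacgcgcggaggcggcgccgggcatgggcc
RXRA: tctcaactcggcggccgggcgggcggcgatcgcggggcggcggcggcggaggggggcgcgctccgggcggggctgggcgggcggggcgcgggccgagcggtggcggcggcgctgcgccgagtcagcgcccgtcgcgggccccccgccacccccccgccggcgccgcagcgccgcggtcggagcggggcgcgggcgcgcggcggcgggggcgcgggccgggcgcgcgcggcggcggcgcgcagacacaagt

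The upstream sequences of PPARA and RXRA were rich in G and C, with a GC content of 84.4% and 89.2%, and held 41 and 59 CpG dinucleotides. Those of NR1H4 and NR5A2 had a GC content of 42.0% and 36.0% with 2 and 0 CpG. The promoter set lists a further start for NR5A2, PPARA and RXRA, with 50.8%, 87.2% and 64.4% GC and 13, 45 and 7 CpG ahead of it and no AGGTCA, so that the contrast between the pairs of genes is smaller there for NR5A2 and RXRA. Across all 35116 upstream sequences in the table the median GC content was 58.0%, with the central 80% between 38.0% and 75.2%, and the median was 11 CpG. The hexamer AGGTCA occurred on either strand once in the NR1H4 sequence and once in that of NR5A2, and not in those of PPARA and RXRA, against 12.1% of all upstream sequences with at least 1 copy. NR1H3, which like PPARA and RXRA was higher in both inhibited libraries, had it once ahead of its first listed start and not ahead of its others. NR1H2, NR1I2, NR1I3 and ESRRA had no copy, so its presence did not separate the receptors by pattern. The longer TCAAGGTCA, which contains AGGTCA and is the form bound by LRH-1 and the ERRs, was in none of the entries of these receptors and in 0.319% of all entries. The start listed for NR1H4 lies 29494 bases inside the gene as RefSeq bounds it, so this window belongs to an internal start. The promoter set had entries for 9 of the 10 genes (not NR0B2).

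ESRRA was the most abundant of the 10 receptors in each library, at 445 to 538 CPM. RXRA (62.1 to 111 CPM), NR0B2 (59.6 to 125 CPM) and PPARA (26.8 to 53.6 CPM) followed. NR1H4, NR1H3, NR1H2, NR1I2 and NR5A2 lay between 2.56 and 30.4 CPM, and NR1I3 reached 1.21 CPM at most. In DMSO, PD0332991 and CDK4/6 KD the first 6 places were held in the same order by ESRRA, RXRA, NR0B2, PPARA, NR1H4 and NR1H3. In scrambled siRNA, NR0B2 stood above RXRA, and NR1H4 was ninth. The intervals of neighbours in this order overlapped for NR1I2 and NR1H2 in DMSO, PD0332991 and CDK4/6 KD, for NR1H2 and NR5A2 in DMSO and PD0332991, for NR1H4 and NR1H3 in PD0332991, and for NR1H3 with NR1H2, NR1I2 with NR5A2 and NR5A2 with NR1H4 in scrambled siRNA. All other neighbours were apart.

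**Figure D1:**
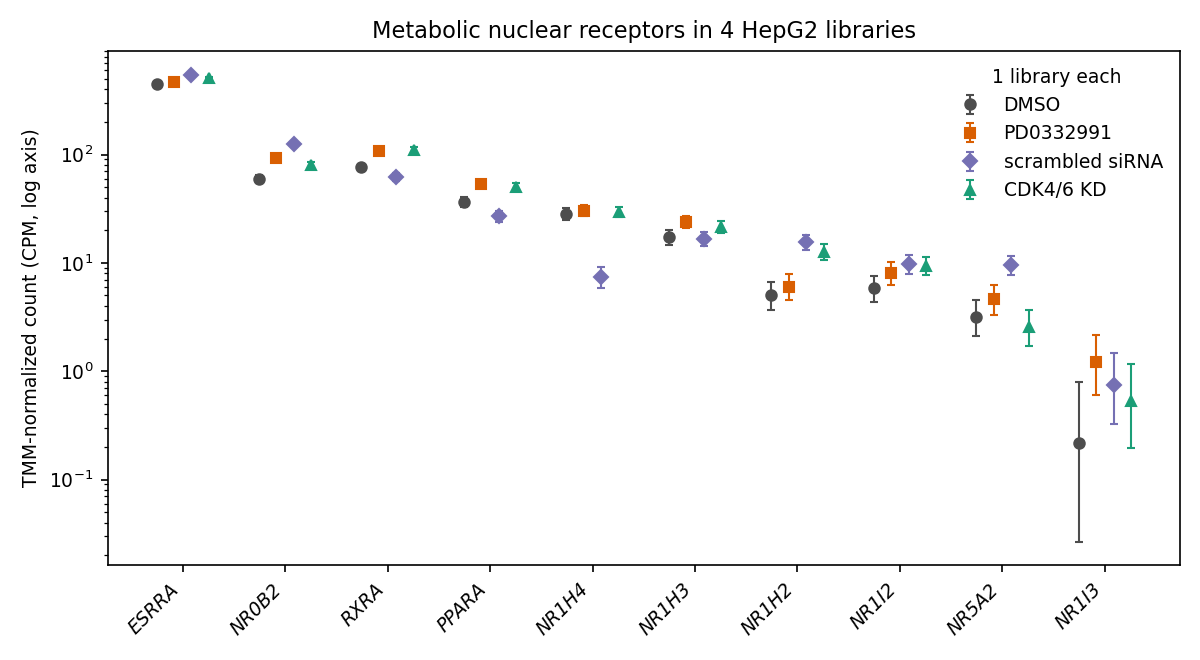
Level of each of the 10 receptors in the 4 libraries, in CPM on a log axis, with 95% Poisson intervals for counting error as bars. ESRRA lies highest at 445 to 538 CPM, NR1I3 lowest at 0.219 to 1.21 CPM, and the scrambled siRNA point of NR1H4 lies well below the other 3.

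Of the 10 receptors, 9 had at least 10 reads in the CDK4/6 KD or the scrambled siRNA library. A difference of at least 2-fold was found for 2 of these 9, against 16.8% of the 13617 genes compared. NR1H4 was higher in CDK4/6 KD, as were 9.19% of all genes, and NR5A2 was lower, as were 7.62%. Between PD0332991 and DMSO, 1 of 10 reached 2-fold (NR1I3, on 11 reads against 2), against 14.6% of 13443 genes (7.49% higher and 7.06% lower with the drug). Between the scrambled siRNA and the DMSO controls, 4 of 9 reached 2-fold, against 11.9% of 13303 genes. Here NR0B2, NR1H2 and NR5A2 were on the higher side with scrambled siRNA, where 5.3% of all genes lay, and NR1H4 on the lower side, where 6.64% lay. At a threshold of 1.5-fold, CDK4/6 KD had 3 receptors on the higher and 2 on the lower side (19.4% and 17.4% of all genes), 2 were higher and 0 lower with PD0332991 (16.8% and 15.1%), and between the controls 4 were higher and 1 lower with scrambled siRNA (13.4% and 15.7%). The counting interval of the fold change left out 1 for 7 of 9, 6 of 10 and 8 of 9 receptors in these comparisons, where 61.9%, 56.7% and 56.3% of all genes did so. In the comparison of PD0332991 with DMSO all 6 of those receptors were higher with the drug, where 28.1% of all genes had an interval above 1. NR1I3 was among the 6, and it passed the filter only through the drug library (11 reads against 2). Its direction was therefore fixed by the filter and adds nothing to this count. Between the controls 5 receptors had an interval above 1 and 3 below it, against 28.3% and 28.0% of all genes.

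**Figure D2:**
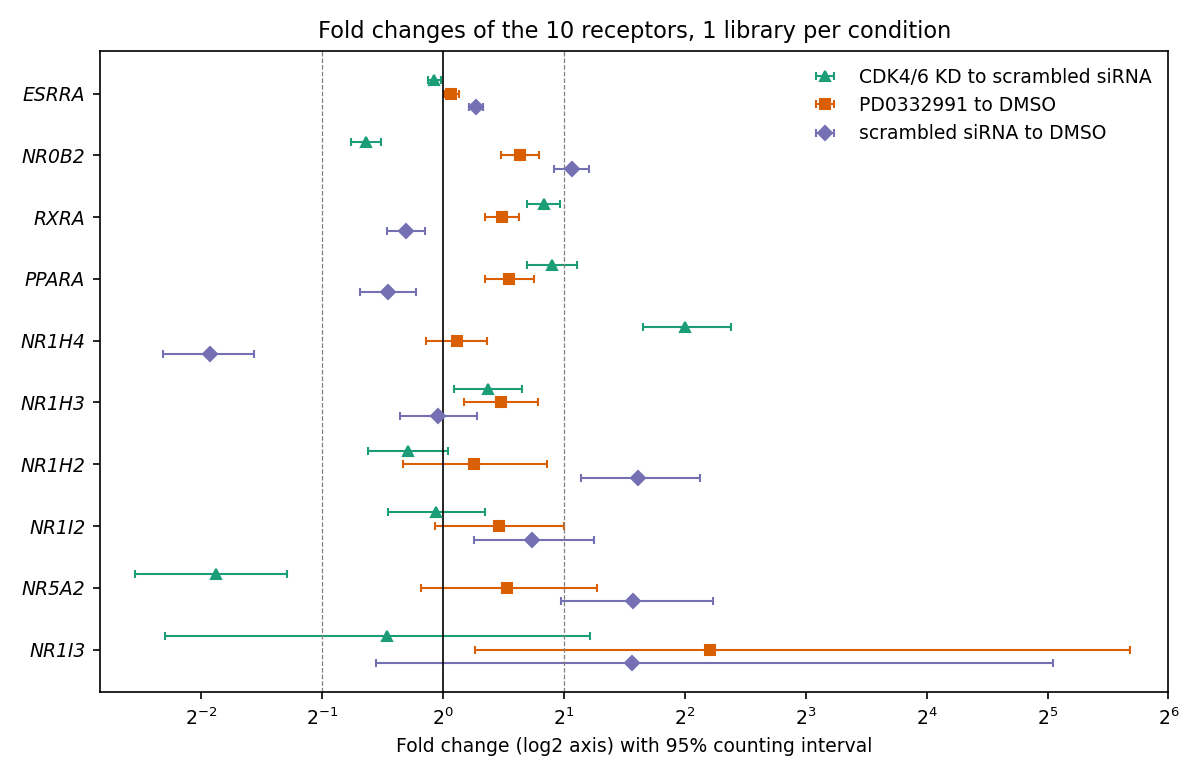
Fold change of each receptor between pairs of libraries on a log2 axis, with 95% Clopper-Pearson intervals for counting error. PPARA and RXRA lie above 1 in both inhibited to control comparisons (1.87 and 1.78 for CDK4/6 KD, 1.46 and 1.40 for PD0332991), while NR1H4 is 4.01 for CDK4/6 KD and 1.08 for PD0332991.

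To see which receptors differed in the same direction whichever control was used, both inhibited libraries were set against both controls, a comparison added after the first values had been seen. PPARA, RXRA and NR1H3 were higher in both inhibited libraries than in both controls, with all 4 intervals above 1. That is 3 of 10 receptors, where 7.01% of the 13961 genes compared had this pattern. The genes compared included any with at least 10 reads in 1 library, and wide intervals on few reads make the pattern harder to reach. PPARA, RXRA and NR1H3 had 157 to 1254 reads. No receptor was below both controls in both inhibited libraries, where 9.71% of genes were. The scrambled siRNA library was above the other 3 for NR0B2, NR5A2 and ESRRA (11.8% of genes) and below the other 3 for NR1H4, PPARA and RXRA (10.2% of genes).

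PPARA (chr22:46150521-46243756, plus strand) encodes the fatty acid receptor that is abundant in hepatocytes. It had 335 reads in DMSO, 488 in PD0332991, 287 in scrambled siRNA and 567 in CDK4/6 KD, which are 36.7, 53.6, 26.8 and 50.1 CPM. Both inhibited libraries lay above both controls, and the controls differed from each other as well. The level with CDK4/6 KD was 1.87-fold that with scrambled siRNA (1.62 to 2.16) and 1.37-fold that with DMSO (1.19 to 1.57). The level with PD0332991 was 1.46-fold that with DMSO (1.27 to 1.68) and 2.00-fold that with scrambled siRNA (1.72 to 2.32).

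RXRA (chr9:134317098-134440585, plus strand), the common partner receptor, had 701, 980, 665 and 1254 reads in DMSO, PD0332991, scrambled siRNA and CDK4/6 KD, or 76.7, 108, 62.1 and 111 CPM. The order of the libraries was that of PPARA, except that CDK4/6 KD was slightly above PD0332991. The fold change was 1.78 (1.62 to 1.96) between CDK4/6 KD and scrambled siRNA and 1.40 (1.27 to 1.55) between PD0332991 and DMSO. Against the control of the other arm it was 1.44 (1.32 to 1.59) for CDK4/6 KD and 1.73 (1.57 to 1.91) for PD0332991.

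NR1H3 (chr11:47248300-47269032, plus strand) encodes LXR alpha, the LXR that is abundant in liver. It had 157 reads in DMSO (17.2 CPM), 218 in PD0332991 (23.9 CPM), 179 with scrambled siRNA (16.7 CPM) and 245 with CDK4/6 KD (21.6 CPM). The controls were nearly level, at a fold change of 0.974 (0.781 to 1.21), and both inhibited libraries stood above them. The fold change was 1.29 (1.06 to 1.58) for CDK4/6 KD against scrambled siRNA and 1.39 (1.13 to 1.72) for PD0332991 against DMSO. The summed hepatocyte markers were likewise higher in both inhibited libraries than in both controls. Singly, APOA1, SERPINA1, FGB, TF and AHSG had this order, whereas ALB, APOB, TTR, AFP and APOH did not. The part of these markers in the values of PPARA, RXRA and NR1H3 was not tested. The summed keratinocyte markers did not have this order, at 207, 225, 367 and 209 CPM in DMSO, PD0332991, scrambled siRNA and CDK4/6 KD. In scrambled siRNA, SFN held 3266 of the 3932 reads of that sum. Singly, KRT5, KRT14, KRT17 and KRT10 did have this order, whereas SFN, KRT6A, KRT6B and KRT16 did not. The part of the keratins was not tested either.

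NR1H4 (chr12:100473708-100564413, plus strand), the bile acid receptor gene, had 257 reads in DMSO (28.1 CPM), 277 in PD0332991 (30.4 CPM), 79 in scrambled siRNA (7.38 CPM) and 337 in CDK4/6 KD (29.8 CPM). A single library stood apart, the scrambled siRNA control, and the other 3 had overlapping intervals. The level with CDK4/6 KD was 4.01-fold that with scrambled siRNA (3.15 to 5.22) but 1.06-fold that with DMSO (0.897 to 1.25). With PD0332991 it was 1.08-fold the DMSO level (0.909 to 1.29). The scrambled siRNA level was 0.264 of the DMSO level (0.201 to 0.339). The fibroblast markers were also lowest in the scrambled siRNA library (5 of 5 compared were at least 2-fold lower than in DMSO), and their part in this value was not tested.

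NR0B2 (chr1:26911489-26913966, minus strand), the gene of the repressor SHP that FXR induces, had a different order of libraries from NR1H4. It had 545 reads in DMSO (59.6 CPM), 844 in PD0332991 (92.7 CPM), 1336 in scrambled siRNA (125 CPM) and 910 in CDK4/6 KD (80.4 CPM). The highest level was in the library where NR1H4 was lowest. CDK4/6 KD was at 0.644 of the scrambled siRNA level (0.591 to 0.701) and PD0332991 at 1.55-fold the DMSO level (1.39 to 1.73). Set against the control of the other arm these became 1.35 and 0.743, again with intervals that left out 1. Of the reads on NR0B2 and NR1H4 together, NR0B2 had 68.0% in DMSO (64.6 to 71.2), 75.3% in PD0332991 (72.7 to 77.8), 94.4% in scrambled siRNA (93.1 to 95.6) and 73.0% in CDK4/6 KD (70.4 to 75.4).

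NR5A2 (chr1:200027602-200177424, plus strand) encodes LRH-1, which activates genes of bile acid synthesis and is held down by SHP. It had 29 reads in DMSO (3.17 CPM), 42 in PD0332991 (4.61 CPM), 102 in scrambled siRNA (9.53 CPM) and 29 in CDK4/6 KD (2.56 CPM). As for NR0B2, the scrambled siRNA library was the highest. The level with CDK4/6 KD was 0.272 of that with scrambled siRNA (0.171 to 0.409) and 0.810 of that with DMSO (0.466 to 1.40). The fold change between PD0332991 and DMSO was 1.45, with an interval that included 1 (0.884 to 2.42).

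NR1H2 (chr19:50329653-50382982, plus strand) encodes LXR beta, the more widely expressed LXR. It had 46, 55, 166 and 144 reads in DMSO, PD0332991, scrambled siRNA and CDK4/6 KD, or 5.03, 6.04, 15.5 and 12.7 CPM. The levels separated by arm and not by inhibition, since both transfected libraries lay above both of the others. The fold change was 0.821 (0.651 to 1.03) within the siRNA arm and 1.20 (0.796 to 1.82) within the drug arm, while scrambled siRNA was at 3.06-fold the DMSO level (2.21 to 4.37). NR1H3 accordingly made up 77.3% of LXR reads in DMSO (71.0 to 82.9) and 79.9% in PD0332991 (74.6 to 84.4), against 51.9% in scrambled siRNA (46.5 to 57.3) and 63.0% in CDK4/6 KD (58.0 to 67.8).

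The xenobiotic receptors were at low levels. NR1I2 (chr3:119780484-119818485, plus strand) had 53, 73, 104 and 106 reads in DMSO, PD0332991, scrambled siRNA and CDK4/6 KD (5.80, 8.02, 9.72 and 9.36 CPM). Its fold change was 0.964 (0.728 to 1.28) for CDK4/6 KD against scrambled siRNA and 1.38 (0.957 to 2.01) for PD0332991 against DMSO, with both intervals including 1. NR1I3 (chr1:161229666-161238302, minus strand) had 2 reads in DMSO, 11 in PD0332991, 8 in scrambled siRNA and 6 in CDK4/6 KD. The ratio of PD0332991 to DMSO was 4.61 with a counting interval from 1.20 to 51.2, and the pair of transfected libraries had too few reads for a comparison. The last 1000 bases of NR1I3 overlap TOMM40L on the opposite strand, and it is not given whether the counting used strand, so that these reads are uncertain.

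ESRRA (chr11:64305572-64316743, plus strand) had the smallest range among the 9 receptors with at least 10 reads in every library. It had 4070 reads in DMSO (445 CPM), 4256 in PD0332991 (467 CPM), 5759 in scrambled siRNA (538 CPM) and 5793 in CDK4/6 KD (512 CPM). The fold change was 0.951 (0.917 to 0.986) for CDK4/6 KD against scrambled siRNA and 1.05 (1.00 to 1.10) for PD0332991 against DMSO, and the first was 1.02 with scaling by total counts and 1.06 with quantile normalization. The interval of so deeply counted a gene is narrow, and the spread between cultures is not known. ESRRA has 2 annotated pseudogenes, ESRRAP1 and ESRRAP2, and its last 1000 bases overlap TRMT112 on the opposite strand. Reads of these genes could have been counted with it.

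Within their families the receptors kept or lost weight as follows. RXRA had 66.3% of RXR reads in DMSO (63.4 to 69.2), 69.5% in PD0332991 (67.0 to 71.9), 59.4% in scrambled siRNA (56.5 to 62.3) and 74.0% in CDK4/6 KD (71.9 to 76.1), and the remainder was RXRB, as RXRG had 0 reads in each library. The share was higher in both inhibited libraries than in scrambled siRNA. PPARA had 63.6% of PPAR reads in DMSO (59.3 to 67.7), 78.0% in PD0332991 (74.5 to 81.1), 55.1% in scrambled siRNA (50.7 to 59.4) and 60.1% in CDK4/6 KD (56.9 to 63.2). Its share was thus highest with PD0332991, where PPARG, the PPAR of fat cells, was at 0.553 of its DMSO level, and the share with CDK4/6 KD overlapped both controls in its interval. ESRRA had at least 99.9% of the reads of the 3 ERRs in every library.

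**Figure D3:**
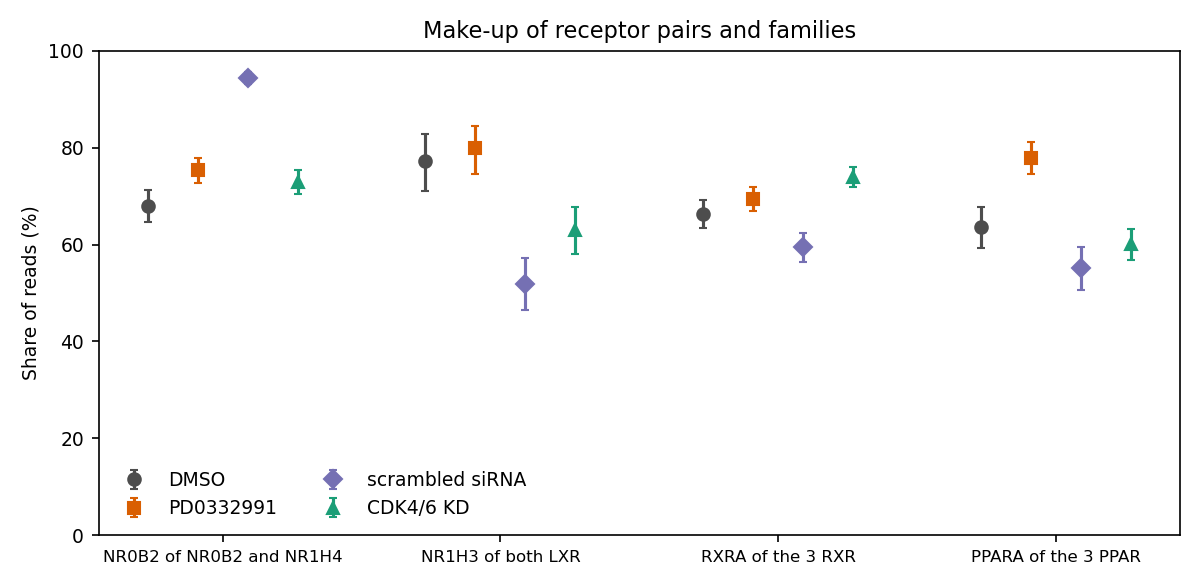
Share of reads, in percent, that 1 receptor had within its family or pair in each library, with 95% Clopper-Pearson intervals. The NR0B2 share of NR0B2 and NR1H4 is 94.4% in scrambled siRNA and 68.0 to 75.3% in the other libraries, and the NR1H3 share of LXR reads is lower in both transfected libraries.

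Likeness of pattern was measured as the largest difference, over the 4 libraries, between the log2 CPM of a pair of receptors after each was centred on its own mean, among the 31 nuclear receptors with at least 10 reads in each library. PPARA and RXRA were the nearest to each other, with a largest difference of 0.10 on the log2 scale. Next came NR2F1 for PPARA (0.13) and NR3C2, the mineralocorticoid receptor, for RXRA (0.13). NR1H3 was nearest to NR3C2 (0.15) and HNF4A (0.15). NR3C2 had only 18, 21, 17 and 27 reads in DMSO, PD0332991, scrambled siRNA and CDK4/6 KD. Its fold change between CDK4/6 KD and scrambled siRNA had a counting interval from 0.789 to 2.94, so its likeness to RXRA and NR1H3 is uncertain. NR1H4 had no near neighbour, the closest being NR2F2 at 0.64 and PPARA at 0.90, and NR5A2 was likewise far from its closest, NR0B2 (0.65) and NR6A1 (0.83). NR0B2 and NR1I2 were 0.32 apart, with ESRRA next for NR0B2 (0.40) and the circadian repressor NR1D1 nearest for NR1I2 (0.28). NR1H2 was nearest to NR1I2 (0.55) and NR0B2 (0.64), and ESRRA to RXRB (0.25) and NR2C2 (0.32). These are descriptions over 4 libraries that share their depth and scaling.

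Among all 48 human nuclear receptors, of which 32 to 35 had at least 10 reads in a library, ESRRA ranked first by mean CPM (491 CPM), ahead of HNF4A (166 CPM), a receptor that sustains hepatocyte identity. NR0B2, RXRA and PPARA ranked the seventh, the eighth and the tenth. The 10 metabolic receptors held 41.2% of all receptor reads in DMSO, 43.7% in PD0332991, 48.9% in scrambled siRNA and 45.8% in CDK4/6 KD. Most of these reads were of ESRRA, with the limits given for it above. In the same order of libraries it had 4070 of 6195, 4256 of 7244, 5759 of 8685 and 5793 of 9391 reads. Of the other receptors, 25 had enough reads to compare CDK4/6 KD with scrambled siRNA, and 5 of these reached 2-fold, 3 upward and 2 downward. NR1D2, a circadian repressor, was 4.05-fold and NR2F2 2.45-fold their scrambled siRNA levels, and NR6A1 was at 0.199 of it. Between PD0332991 and DMSO, 0 of 25 reached 2-fold. The nearest were THRA, a thyroid hormone receptor, at 1.995-fold, and PPARG.

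**Figure D4:**
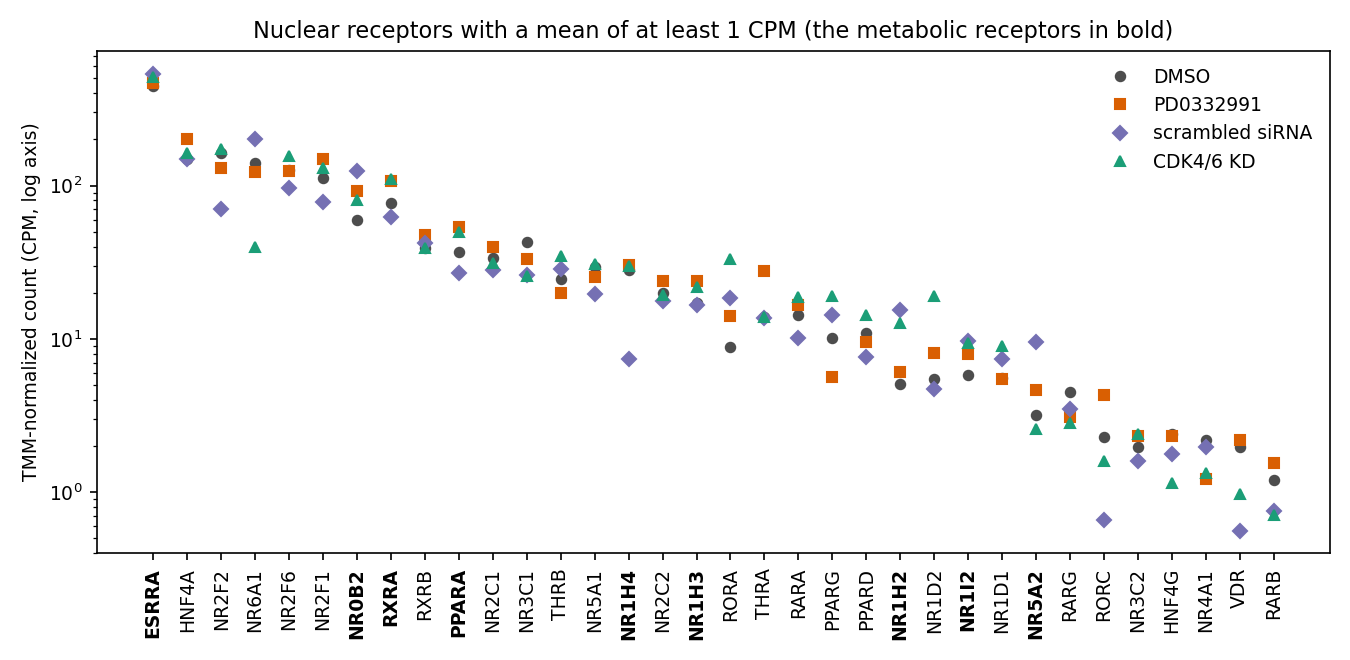
Level in the 4 libraries of the nuclear receptors with a mean of at least 1 CPM, in CPM on a log axis, ordered by their mean, with the metabolic receptors named in bold (NR1I3 lies under this mean). ESRRA is first at a mean of 491 CPM and HNF4A second at 166 CPM.

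The genes that these receptors control were described with lists of their known targets, with the receptors themselves left out. Each list is set beside all genes, for which the median log2 fold change was -0.0036 for CDK4/6 KD against scrambled siRNA, 0.02 for PD0332991 against DMSO and 0.01 between the controls. A gene is counted as higher or lower here if the counting interval of its fold change left out 1, which for CDK4/6 KD against scrambled siRNA held above 1 for 30.0% and below 1 for 31.9% of all genes, for PD0332991 against DMSO for 28.1% and 28.6%, and for scrambled siRNA against DMSO for 28.3% and 28.0%. Because the controls differ, the median against the control of the other arm is given as well where it moved by over 1.5 times or changed sign.

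Bile acid synthesis was represented by 12 genes, of which CDK4/6 KD had 7 above and 3 below their scrambled siRNA level, with a median log2 fold change of 0.44 (0.25 against DMSO). CYP7A1, the rate-limiting enzyme of the classic pathway, had 3 reads in DMSO, 9 in PD0332991, 1 in scrambled siRNA and 79 in CDK4/6 KD, a ratio of 50.6 to scrambled siRNA with a counting interval from 13.0 to 2987. CYP8B1, which is required for cholic acid, was 3.19-fold higher. In contrast BAAT, which conjugates bile acids to amino acids, was at 0.283 of the scrambled siRNA level and HSD3B7, an enzyme of early sterol ring modification, at 0.488. The BAAT level with scrambled siRNA was itself 7.85-fold that in DMSO. With PD0332991, 5 of 11 genes were higher and 2 lower than in DMSO, and the median was 0.04 (0.02 against scrambled siRNA). ACOX2, a peroxisomal oxidase of side chain shortening, was 1.72-fold and CYP8B1 1.85-fold the DMSO level.

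Of 12 FXR targets and bile acid transport genes, 8 were above and 2 below their scrambled siRNA level in CDK4/6 KD, with a median of 0.47 (0.22 against DMSO). With PD0332991, 5 of 11 were higher and 2 lower (median 0.18, and 0.61 against scrambled siRNA), and between the controls 0 of 11 were higher and 6 lower in scrambled siRNA. KNG1, which encodes kininogen, had 26 reads in CDK4/6 KD and 0 in scrambled siRNA, which is at least 8.19-fold higher at a floor of 3 reads per library. VLDLR, a lipoprotein receptor, was 9.31-fold higher, though its levels in the controls were nearly equal (0.986). SLC51B, a subunit of the bile acid exporter OST, went the other way, with 0 reads in CDK4/6 KD and 11 in scrambled siRNA. At the same floor it was 3.88-fold lower, with a counting interval of the fold change that ends at 0.377. KNG1 and SLC51B lie on their side of the median also at these floor values, so that the median of the list does not depend on them. After PD0332991 SLC51B was at 0.244 of the DMSO level, and SLC51A, the other subunit, at 3.08-fold.

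Of 14 LXR targets, 8 were higher and 4 lower in CDK4/6 KD (median 0.37), and 10 were higher and 1 lower with PD0332991 (median 0.52, and 0.18 against scrambled siRNA). APOE, the apolipoprotein of lipoprotein remnants, was 1.76-fold its control in both comparisons and nearly equal between the controls (1.03). ABCG8, a subunit of the sterol exporter of the canalicular membrane, was 3.87-fold and 1.54-fold its controls, with the scrambled siRNA level at 0.322 of the DMSO level. ABCA1, the cholesterol exporter, was at 0.787 of its control with CDK4/6 KD and 1.40-fold with PD0332991. SREBF1, the regulator of fatty acid synthesis, was at 1.33-fold and 0.751.

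Of 21 PPAR alpha targets, 10 were higher and 4 lower in CDK4/6 KD (median 0.13, and 0.38 against DMSO). Of 19 with PD0332991, 13 were higher and 2 lower (median 0.39, and 0.02 against scrambled siRNA). CPT1A, which admits fatty acids to mitochondria, was 2.05-fold and 1.57-fold its controls, and as for PPARA the scrambled siRNA level lay below that of DMSO (0.647). SLC25A20, the carnitine carrier that acts after CPT1A, was at 0.666 with CDK4/6 KD and 1.95-fold with PD0332991. PLIN2 and CIDEC, which coat lipid droplets, stood with scrambled siRNA at 2.12-fold and 7.44-fold their DMSO levels, and were at 0.536 and 0.320 of that level with CDK4/6 KD. PLIN2 was also lower than its control with PD0332991 (0.638), whereas CIDEC was 1.49-fold. ANGPTL4, an inhibitor of lipoprotein lipase, had 77, 93, 7 and 32 reads in DMSO, PD0332991, scrambled siRNA and CDK4/6 KD.

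Of 13 PXR and CAR targets, 7 were higher and 3 lower in CDK4/6 KD (median 0.57), and 6 were higher and 1 lower with PD0332991 (median 0.38). SULT2A1, a sulfotransferase of steroids and bile acids, was 3.49-fold its control with CDK4/6 KD and 0.953 with PD0332991. GSTA1, a glutathione transferase, was 3.30-fold and 0.522. ABCC3, an exporter of conjugates, was 0.986 and 2.14-fold. AKR1B10, an aldo-keto reductase, and ABCB1, a drug exporter, were at 0.441 and 0.583 of their scrambled siRNA level in CDK4/6 KD. With PD0332991 AKR1B10 was at 0.894 of the DMSO level and ABCB1 at 1.46-fold (1.34 to 1.61).

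Of 10 LRH-1 targets, 2 were higher and 5 lower in CDK4/6 KD, with a median of -0.42 (-0.11 against DMSO), the only negative median among the 7 target and pathway lists in that comparison. NR5A2 was lower there as well. Between the controls, however, NR5A2 was 2.97-fold higher with scrambled siRNA, while 4 of 9 LRH-1 targets were higher and 4 lower (median 0.05). CYP7A1 and CYP8B1, counted above under bile acid synthesis and not in this list, were higher in CDK4/6 KD. Whether the targets followed NR5A2 was not tested. CCND1, the cyclin that partners CDK4 and CDK6, was at 0.626 of the scrambled siRNA level, and APOM, an apolipoprotein of high density lipoprotein, at 0.591. CETP, which moves cholesteryl ester between lipoproteins, had 12 reads in CDK4/6 KD and 1 in scrambled siRNA, a ratio of 7.96 with a counting interval from 1.68 to 485. With PD0332991, 5 of 10 were higher and 2 lower (median 0.21), and SHBG, a carrier of sex hormones, was 4.37-fold and CCNE1, cyclin E1, 0.452 of the DMSO level.

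Of 18 ERR alpha targets, 7 were higher and 4 lower in CDK4/6 KD (median 0.11, and -0.02 against DMSO), and 4 were higher and 8 lower with PD0332991 (median -0.04, and 0.14 against scrambled siRNA). CS, citrate synthase, was at 0.372 and 0.732 of its controls, and was the 1 gene of the list that reached 2-fold. CYCS, cytochrome c, was at 0.742 and 0.620 of its controls. SLC25A4, the ADP/ATP carrier, was 1.54-fold its scrambled siRNA level in CDK4/6 KD and 0.755 of its DMSO level with PD0332991.

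Coregulators, the proteins through which the receptors act on chromatin, were described in the same way. Of 21, 10 were higher and 6 lower in CDK4/6 KD (median 0.17), 5 higher and 8 lower with PD0332991 (median -0.11), and between the controls 2 higher and 14 lower with scrambled siRNA (median -0.35). The medians changed sign with the control of the other arm, to -0.30 for CDK4/6 KD and 0.24 for PD0332991. MED1, the Mediator subunit that contacts nuclear receptors, was 1.58-fold and TBL1X and HDAC3, parts of the corepressor complex, were at 0.414 and 0.580 of their scrambled siRNA levels. PPARGC1A, the coactivator PGC-1 alpha of PPAR alpha and ERR alpha, had 123 reads in DMSO, 242 in PD0332991, 69 in scrambled siRNA and 89 in CDK4/6 KD. It was 1.97-fold the DMSO level with PD0332991 (1.58 to 2.47) and 1.22-fold the scrambled siRNA level with CDK4/6 KD, with an interval that included 1 (0.880 to 1.69).

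**Figure D5:**
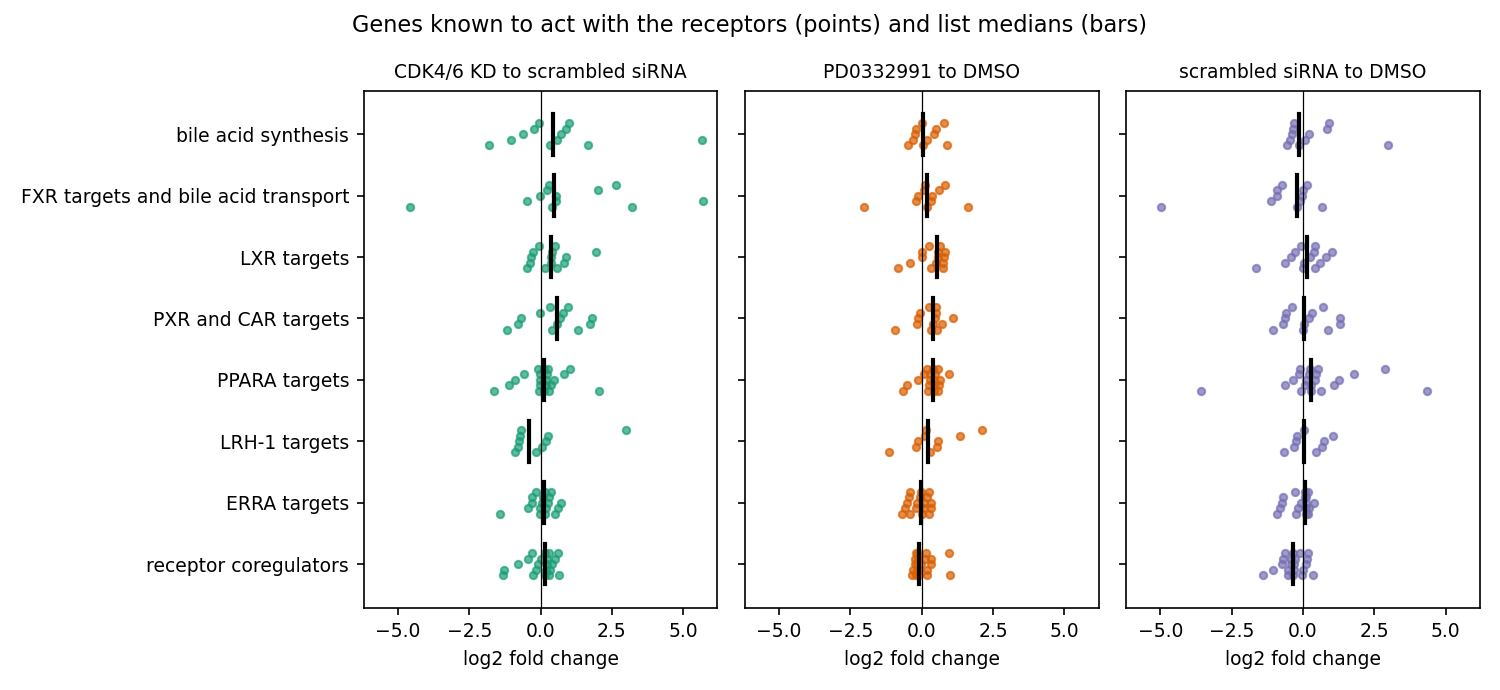
Log2 fold change of the genes in each list (points) and median of the list (bars) in 3 panels, 1 for each pair of libraries. The outermost points include KNG1, SLC51B and CYP7A1, which have at most 1 read in 1 of the libraries compared. The LXR targets have medians of 0.37 and 0.52 in CDK4/6 KD and PD0332991 against their controls, and the LRH-1 targets a median of -0.42 in CDK4/6 KD.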

How the data were processed

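HepG2 cells were profiled in 4 libraries (DMSO, PD0332991, scrambled siRNA and CDK4/6 KD) made with the QuantSeq 3′ mRNA kit from 500 ng of total RNA and sequenced on a NextSeq 500. For each library the authors deposited 1 file of raw counts, with a symbol for each gene. The submitters' processing notes name Bowtie2, edgeR and hg19. The counter, the annotation and the strand setting are not given in the sources used here. Reads on the wrong copy or strand would change the counts of overlapping and duplicated genes.

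Counts of 286 repeated symbols were summed, and 25737 entries became 24462 genes. Totals were 9123209 (DMSO), 8983848 (PD0332991), 11176880 (scrambled siRNA) and 11000545 (CDK4/6 KD) reads. TMM factors (edgeR 4.0.16 in R 4.3.3) were 0.957 to 1.03. A pseudocount of 0.5 reads, scaled by library size, was added before ratios were taken, genes under 10 reads in both libraries of a pair were left out, and a difference of 2-fold was counted. With 1 library per condition no significance test was made. No molecular identifiers are named, so intervals (scipy 1.17.1) cover counting error only. The script was tested on simulated data. Alternatives were DESeq2 1.42.0 size factors, total counts, quantile normalization (limma 3.58.1), a pseudocount of 5 reads, filters of 50 reads or none, a 1.5-fold threshold, the control of the other arm, and, for repeated symbols, the entry with the most reads. The receptors and all gene lists were chosen with earlier results of these data known. Genes named from each list were the 2 highest and 2 lowest in CDK4/6 KD and the highest and lowest with PD0332991, ranked by the interval end nearest to 1, and for each receptor the 2 nuclear receptors with the most alike pattern. Some genes that this rule names are not reported here. Gene positions are from GENCODE on GRCh38, whereas the counts carry symbols only.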

Additional observations from a re-analysis of the deposited data

Results flagged for a closer look

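NR0B2 and ESRRA stood on opposite sides of their controls in the siRNA and the drug arm, with counting intervals on opposite sides of 1. NR0B2 was at 0.644 (0.591 to 0.701) of the scrambled siRNA level in CDK4/6 KD and at 1.55 (1.39 to 1.73) of the DMSO level with PD0332991. For ESRRA the values were 0.951 (0.917 to 0.986) and 1.05 (1.00 to 1.10), and with scaling by total counts or quantile normalization its value in CDK4/6 KD was 1.02 or 1.06. Set against DMSO, both inhibited libraries were higher, NR0B2 at 1.35 with CDK4/6 KD and 1.55 with PD0332991, ESRRA at 1.15 and 1.05. Set against scrambled siRNA, both were lower, NR0B2 at 0.644 and 0.743, ESRRA at 0.951 and 0.868. The difference between the arms was not tested, because there was 1 library per condition.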

How the results depend on the processing

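No paired analysis was possible because each condition had 1 library and the labels give no shared replicate numbers, and for the same reason no library could be left out. The fold changes of the 10 receptors in the 3 comparisons stayed within their counting interval in 30 of 30 cases with DESeq2 size factors, a pseudocount of 5 reads or the most counted entry, in 28 of 30 with total counts and in 27 of 30 with quantile normalization, the exceptions all being ESRRA. With the control of the other arm only 4 of 20 stayed. NR0B2 turned there from 0.644 to 1.35 for CDK4/6 KD and from 1.55 to 0.743 for PD0332991. In that setting NR1H2 turned from 0.821 to 2.51 for CDK4/6 KD and from 1.20 to 0.391 for PD0332991, NR1I2 from 0.964 to 1.61 and from 1.38 to 0.826, NR5A2 from 1.45 to 0.487 for PD0332991, ESRRA from 0.951 to 1.15 and from 1.05 to 0.868, and NR1I3 from 0.726 to 2.16 for CDK4/6 KD on few reads. Total counts moved NR1I2 in CDK4/6 KD to 1.04 and the median log2 fold change of all genes from -0.0036 to 0.10, and quantile normalization moved NR1H3 between the controls from 0.974 to 1.01. The number of receptors at 2-fold in CDK4/6 KD against scrambled siRNA was 2, and became 3 with total counts (PPARA at 2.01), 5 at 1.5-fold and 1 with DMSO as control, where NR1H2 was past 2-fold and NR1H4 and NR5A2 were not. The number for PD0332991 was 1, and became 3 with scrambled siRNA as control, 2 at 1.5-fold, and 0 both with at least 50 reads and with the whole interval required past 2-fold. Between the controls it was 4, and became 2 with the whole interval past 2-fold. The medians of the gene lists stayed between the medians of their interval ends in 30 of 30 cases under each other setting. With the control of the other arm 8 of 20 stayed. There those of ERR alpha targets and coregulators changed sign in both comparisons and that of the liver factors with PD0332991. Some medians near 0 changed sign with other scalings too. With quantile normalization that of ERR alpha targets with PD0332991 went from -0.04 to 0.04. Between the controls that of LRH-1 targets went from 0.05 to -0.02 with total counts and -0.03 with quantile normalization. That of PXR and CAR targets went there from 0.05 to -0.01 with total counts. The cause of these dependences was not tested.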

Other observations

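Transcription factors that set hepatocyte identity were described beside the receptors. Of 15 such factors, CDK4/6 KD had 11 above and 2 below their scrambled siRNA level, with a median log2 fold change of 0.69, whereas 4 were higher and 7 lower with PD0332991 than in DMSO (median -0.12). With the control of the other arm the medians were 0.06 for CDK4/6 KD and 0.41 for PD0332991. Between the controls 2 were higher and 8 lower in scrambled siRNA (median -0.41), and 5 were at least 2-fold lower. ONECUT1 (HNF6), a factor that activates CYP7A1, was 3.40-fold its scrambled siRNA level in CDK4/6 KD and 1.43-fold its DMSO level with PD0332991, with scrambled siRNA at 0.332 of DMSO. FOXA1, a pioneer factor of liver development, was 2.18-fold its control in CDK4/6 KD and 0.544 with PD0332991. HNF4A was 1.09-fold and 1.36-fold its controls. FOXA3 was at 0.679 of the scrambled siRNA level in CDK4/6 KD.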
